A study of Mus musculus with 7 samples.

Results

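The distal chondrocyte enhancers described here were 4648 regions of the mouse genome that carried active histone marks in rib chondrocytes and had no H3K27ac peak in dermal fibroblasts. They were chosen from the 25580 H3K27ac peaks of replicate 1 on chromosomes 1 to 19 and X (mm9 build), of which they made up 18.2%. A member had to overlap, by at least 1 base, an H3K4me2 peak of chondrocytes and an H3K27ac peak of the WT chondrocytes, and to overlap no H3K27ac peak of the fibroblasts. It also had to stay more than 1 kb from the transcription start site (TSS) of every protein-coding gene, taken as the gene's outermost start. Its midpoint had to lie within 200 kb of the nearest TSS. Of the 25580 peaks, 15800 were distal by this definition, 13674 of those overlapped H3K4me2, 8977 overlapped the WT list as well, 5210 had no fibroblast peak, and the 200 kb limit left 4648. The 3525 regions that met every other condition but did overlap a fibroblast peak, called shared distal enhancers below, served as the set for comparison. These lists chose the members, so the presence of those marks is a description and not a result.

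The study profiled histone marks by ChIP-Seq in primary cells of newborn mice. Chondrocytes came from rib cartilage and were used within 2 passages, with H3K27ac in 2 replicates and 1 library each of H3K4me2 and input DNA, and dermal fibroblasts came from dorsal skin with 1 H3K27ac library. A second pair of H3K27ac libraries compared chondrocytes of WT mice with those of littermates homozygous for a CRISPR/Cas9 deletion of E160 and E308, a pair of Sox9 enhancers, in C57BL/6J embryos (genotype E160(delta/delta);E308(delta/delta)). The fibroblasts and the first chondrocyte libraries have no genotype or strain given in the labels, and nothing in the sources used here says how many animals were pooled in a library. Only peak lists were analysed, so the read depth of each library is unknown, and a region without a peak may still carry signal under the caller's threshold.

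Enhancers are stretches of DNA outside promoters that raise transcription of a gene at a distance. Nucleosomes beside an active enhancer carry acetylation of lysine 27 on histone H3 (H3K27ac), and methylation of lysine 4 (H3K4me2) marks enhancers and promoters that are open to transcription factors. In cartilage, Sox9, with its partners Sox5 and Sox6, binds enhancers of matrix genes such as Col2a1, Acan and Col11a1. The gene nearest to an enhancer is a convenient name for its neighbourhood, and the lists do not show which gene a region acts on.

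At the deleted elements the lists matched their labels. Peaks lay 309 kb and 161 kb upstream of the Sox9 TSS, at E308 and E160, in the replicate 1, H3K4me2 and WT lists, and neither had a peak in the deletion list. Both also had a peak in the fibroblast list, with scores of 77.4 and 120, so that neither was a member. Promoters of 13 of 15 chondrocyte marker genes had a WT peak within 1 kb of the TSS (47.3% of all protein-coding genes did) and 1 of the 15, that of Sox9, had a fibroblast peak (44.8% of all). Fewer of the 15 had a promoter peak in the replicate 1 list, 9 (41.7% of all), and in the H3K4me2 list, 11 (62.8% of all). Of 8 fibroblast markers, 4 had a fibroblast promoter peak and 7 had a WT promoter peak. The promoters of Col1a1, Col1a2, Col3a1 and Prrx1 had no fibroblast peak although the WT chondrocytes had a peak at each. Absence from the fibroblast list was therefore seen at genes that define fibroblasts too.

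Sequences are shown for the members with the highest replicate 1 score nearest to genes of the cartilage programme, since those genes mark the cell type in which the set was found. Each is the 300 bases about the peak midpoint on the plus strand of mm9, with matches to the motifs searched below in capitals. They come from the peaks at chr7:86186915-86190072 (Acan, the aggregating proteoglycan of cartilage), chr1:24199283-24206105 (Col9a1, a chain of type IX collagen), chr3:113701340-113705559 (Col11a1, a chain of type XI collagen), chr13:89660730-89662603 (Hapln1, the link protein that ties aggrecan to hyaluronan) and chr14:80075520-80079192 (Lect1, chondromodulin).
Acan: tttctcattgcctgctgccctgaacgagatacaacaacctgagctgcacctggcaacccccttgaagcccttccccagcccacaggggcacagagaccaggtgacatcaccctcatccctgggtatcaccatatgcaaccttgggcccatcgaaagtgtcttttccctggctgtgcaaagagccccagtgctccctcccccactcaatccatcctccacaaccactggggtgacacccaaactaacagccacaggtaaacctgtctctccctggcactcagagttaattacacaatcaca
Col9a1: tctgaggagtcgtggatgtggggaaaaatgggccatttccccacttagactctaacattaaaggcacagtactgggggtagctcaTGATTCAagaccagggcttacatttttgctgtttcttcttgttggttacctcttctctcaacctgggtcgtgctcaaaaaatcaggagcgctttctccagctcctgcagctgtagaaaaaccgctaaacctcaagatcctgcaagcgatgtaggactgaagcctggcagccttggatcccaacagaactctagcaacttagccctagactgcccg
Col11a1: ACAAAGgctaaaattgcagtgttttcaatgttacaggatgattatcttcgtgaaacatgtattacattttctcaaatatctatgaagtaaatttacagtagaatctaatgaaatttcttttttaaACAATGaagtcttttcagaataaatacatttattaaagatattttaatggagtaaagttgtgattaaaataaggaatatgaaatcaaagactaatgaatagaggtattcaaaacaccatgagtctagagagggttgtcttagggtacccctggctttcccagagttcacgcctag
Hapln1: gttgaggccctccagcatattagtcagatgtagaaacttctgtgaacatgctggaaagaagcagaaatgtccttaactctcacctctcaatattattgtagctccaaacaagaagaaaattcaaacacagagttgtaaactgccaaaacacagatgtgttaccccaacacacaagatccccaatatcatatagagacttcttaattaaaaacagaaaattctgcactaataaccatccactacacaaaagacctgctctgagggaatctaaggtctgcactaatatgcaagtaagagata
Lect1: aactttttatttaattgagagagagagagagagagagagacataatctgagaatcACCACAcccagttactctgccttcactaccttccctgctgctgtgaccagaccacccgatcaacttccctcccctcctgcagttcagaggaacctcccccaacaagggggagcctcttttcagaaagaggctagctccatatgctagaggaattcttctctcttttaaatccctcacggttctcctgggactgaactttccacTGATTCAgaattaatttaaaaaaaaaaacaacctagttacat
The Acan region lay 9.88 kb upstream of its TSS between genes, the Col9a1 region 18.2 kb into the gene in an intron, and the others 30 kb (Col11a1), 18.6 kb (Hapln1) and 15.4 kb (Lect1) upstream between genes. The Col11a1 window held the SOX hexamers ACAAAG and ACAATG, the Col9a1 window held the AP-1 match TGATTCA, the Lect1 window held TGATTCA and the RUNX match ACCACA, and the Acan and Hapln1 windows held none of the motifs. The 5 windows ranged from 30.3% (Col11a1) to 55% (Acan) in G and C.

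Motifs were counted in 300-base windows about the midpoints of all regions, on both strands. A SOX hexamer, ACAAAG or ACAATG, was present in 1597 of 4648 members, 34.4% (exact 95% interval 33 to 35.7), in 30% of shared distal enhancers (28.5 to 31.6), and in 38.8% of 18211 genome positions at 100 kb steps within the same distance limits. Members lay above the shared set and below the genome positions. The median G and C content moved with this order, at 45.7% in members, 50% in shared distal enhancers and 42.7% at the genome positions, and its part in the result was not tested. Inverted pairs of SOX sites with a spacer of 3 or 4 bases, the arrangement that a Sox9 dimer is known to bind, occurred in 10 members, 0.215% (0.103 to 0.395), in 3 shared distal enhancers, 0.0851% (0.0176 to 0.249), and at 0.0988% of genome positions (0.0586 to 0.156). The pairs include SOX hexamers, so these counts are not separate from the first.

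The RUNX motif TGTGGT was present in 22.8% of members (21.6 to 24), 19.7% of shared distal enhancers (18.4 to 21) and 20.8% of genome positions (20.2 to 21.4). The TEAD motif GGAATG was found in 21.8% of members (20.6 to 23), 17.7% of shared distal enhancers (16.5 to 19) and 15.6% of genome positions (15.1 to 16.2). The AP-1 motif TGANTCA stood in 12.8% of members (11.9 to 13.8) and 13.5% of shared distal enhancers (12.4 to 14.6), intervals that overlap, against 8.52% of genome positions (8.12 to 8.93). The PITX motif TAATCC was held by 10.6% of members (9.71 to 11.5), 7.91% of shared distal enhancers (7.04 to 8.86) and 12% of genome positions (11.5 to 12.5). Distal replicate 1 peaks with neither a WT nor a fibroblast peak held the TEAD motif in 18.1% (17 to 19.2) and the RUNX motif in 20.5% (19.3 to 21.6), lower than in members for TEAD and, with intervals that meet, for RUNX. The same peaks held the SOX hexamers in 35.7% (34.3 to 37.1), the SOX pairs in 0.237% (0.118 to 0.423), the AP-1 motif in 13.2% (12.2 to 14.2) and the PITX motif in 11.4% (10.5 to 12.3). These 4 shares were slightly above those of the members, with intervals that overlap. The presence of a motif is a match of letters and does not show binding. These intervals, like all others in the text, are exact (Clopper-Pearson), cover counting error only and treat regions as independent, and 1 library stood behind each list.

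The midpoint was in an intron of a protein-coding gene in 2629 members, 56.6% (55.1 to 58), against 50.6% of all distal peaks of replicate 1 and 54.1% (52.7 to 55.5) of those with neither a WT nor a fibroblast peak, whose interval overlaps that of the members. With only the highest-scoring 25% of each list, the fibroblast list included, 240 regions met the rule and the share was 43.8%. Those regions could include some that overlap a lower-scoring fibroblast peak. Between genes lay 1825 members, 39.3% (37.9 to 40.7), in UTR exons 133 (2.86%) and in coding exons 61 (1.31%). Shared distal enhancers were in introns less often, 46.8% (45.2 to 48.5), and in UTR exons more often, 5.48% (4.75 to 6.28). Of genome positions at 1 kb steps that met the same distance limits, 41.9% were in introns and 54.5% between genes. In the annotation 40 gene models span 3 or more other whole genes, such as Gm20388 with 22 intronic members and a 3009 kb model of Fgfr2 with 16. Without those models 56% of members stayed in introns.

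**Figure D1:**
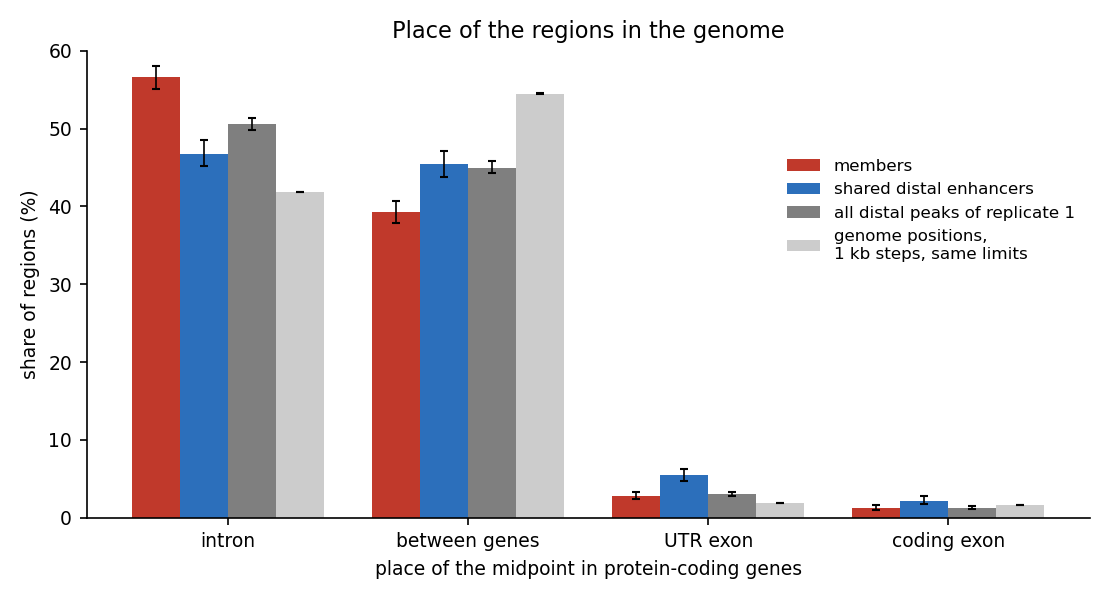
Share (%) of regions by the place of their midpoint in protein-coding genes, for members, shared distal enhancers, all distal replicate 1 peaks and genome positions at 1 kb steps; bars show the share and whiskers the exact 95% interval. Members stood at 56.6% in introns, above the 46.8% of shared distal enhancers and the 41.9% of genome positions.

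An intronic member was nearest to the TSS of the gene that holds it in 1916 of 2629 cases, 72.9% (71.1 to 74.6), and in the rest another gene's start was closer. A total of 1567 genes held an intronic member, and 62 held 5 or more. Gmds held 9, of which 4 were nearest to Foxc1, and Farp1 held 10, of which 3 were nearest to the TSS of Stk24. Stard13, a GTPase-activating protein, held 9, of which 3 were nearest to Kl.

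The members had a median distance of 37.1 kb to the nearest TSS (quartiles 16 and 79.4 kb). The medians were 27.5 kb for shared distal enhancers and 38.2 kb for genome positions within the limits. Upstream of the nearest TSS lay 37.9% of members (36.5 to 39.3) and 40.5% of shared distal enhancers (38.9 to 42.2), intervals that overlap. The peaks were 230 to 6823 bp wide, with a median of 958 bp. At the limits of the rule, the member farthest from a TSS was nearest to Hlx, with its midpoint 199928 bp from the start, and the first region outside was nearest to Mbnl3, 200162 bp upstream. The member closest to a start had its edge 1002 bp from that of Anxa8, and the nearest region left out lay 996 bp from that of Plekha7. Starts of other transcripts were not used, and 189 members, 4.07%, lay within 1 kb of the start of some coding transcript. The smallest overlap of a member with a WT peak was 1 bp and with an H3K4me2 peak 4 bp, and the smallest gap to a fibroblast peak was 2 bp. A fibroblast peak lay within 1 kb of 329 members, 7.08%, and within 10 kb of 31.6%, with a median gap of 19.7 kb.

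As nearest gene, the members named 2820 of 22208 protein-coding gene symbols (12.7%). A single member fell to 1814 genes, 2 to 586 genes, and 3 or more to 420 genes (1.89% of all symbols), which took 1662 of the 4648 members, 35.8%. Genes with 5 or more members numbered 108, against 32 for the 3525 shared distal enhancers, and the highest counts were 10 and 9. Both kinds of region occurred at 934 genes, 33.1% of the genes with a member and 37.8% of those with a shared distal enhancer. Over all 22208 symbols, 11.1% had a shared distal enhancer and 12.7% a member, so both kinds met at the same genes more often than over all genes.

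**Figure D2:**
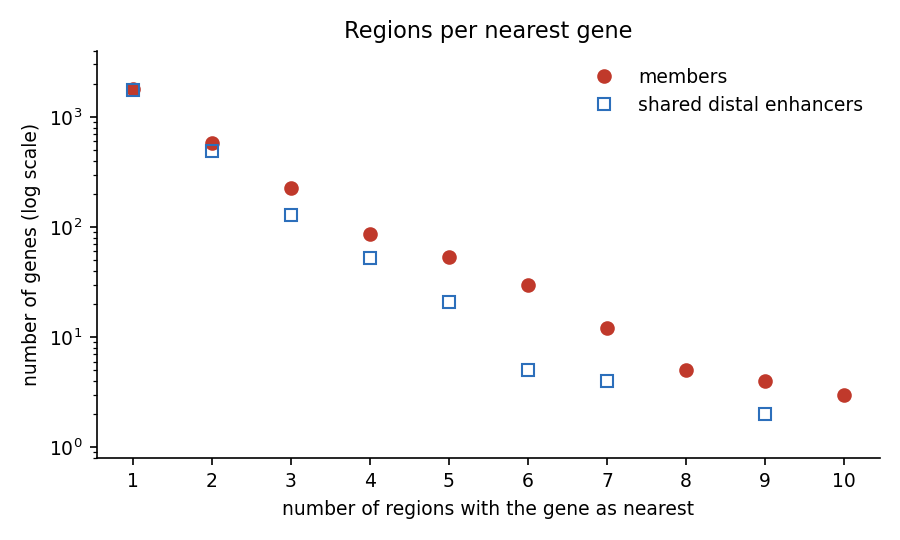
Number of genes (log scale) against the number of regions that had the gene as their nearest, for members (filled circles) and shared distal enhancers (open squares). At 5 regions stood 54 genes for members and 21 for shared distal enhancers, and 3 genes had 10 members.

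For each region named below, the fold is the enrichment over local background that the peak caller gave in the WT or the deletion list, and the score ranks peaks within the replicate 1 list. A deletion peak is a peak of the E160/E308 deletion list that overlaps the member, as did 62.8% of all WT peaks and 50.8% of the distal ones, and a match in replicate 2 is a peak of that list at the same distance from the same TSS, found for 42% of all distal replicate 1 peaks. The replicate 2 list was in another genome build, so a gene start annotated differently there would also leave that gene's members unmatched.

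Gmds and Tns3 had 10 members each. Gmds, an enzyme of GDP-fucose synthesis, had 5 members in its introns and 5 upstream between genes, from 181 kb upstream to 126 kb downstream of its TSS. Of these, 7 had a peak in the deletion list and 8 of 10 had a match in replicate 2. Tns3, a focal adhesion protein of the tensin family, also had 5 in introns and 5 upstream. Its highest WT fold enrichment was 26.9, at the region 41.4 kb upstream, with a deletion fold of 14.2, and only the region 79.9 kb upstream, with a WT fold of 3.2, had no deletion peak.

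Col11a1, Tox, Gm10335 and Setbp1 had 9 each. Tox, an HMG-box transcription factor, had all 9 in its introns between 30.8 and 156 kb downstream of the TSS, 8 of them with a deletion peak. Setbp1, a DNA-binding protein, had 8 of 9 upstream between genes in close pairs, with a match in replicate 2 for 1 of 9 although 8 had a deletion peak. Gm10335 is a predicted gene whose promoter had no peak in any of the mm9 lists, and 6 of its 9 members lay in introns of Gpr126, an adhesion G-protein-coupled receptor. Around this locus the nearest TSS therefore named a gene without a promoter mark.

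Genes with 8 members were Sorbs2, an adaptor of the actin cytoskeleton, Glis3, a Krüppel-like zinc finger factor, 2010111I01Rik, Rnf144b, an E3 ubiquitin ligase, and Slc7a1, a cationic amino acid transporter. The members of Sorbs2, Glis3 and 2010111I01Rik were all intronic. Glis3 has more than 1 annotated start, and 3 of its members, 43.5 to 81.6 kb upstream of the nearer start, were in its introns. Sorbs2 had 7 of 8 with a deletion peak although its TSS had no promoter peak in any of the lists. Farp1, a guanine nucleotide exchange factor, Myst4, a histone acetyltransferase, and Ptpn14, a phosphatase of the Hippo pathway, had 7 members each, with deletion peaks at 6, 3 and 6. Among the genes named so far for their number of members, Gmds, Col11a1, Tox, Gm10335, Setbp1, Rnf144b and Ptpn14 had no shared distal enhancer, and Tns3 had the most with 3.

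**Figure D3:**
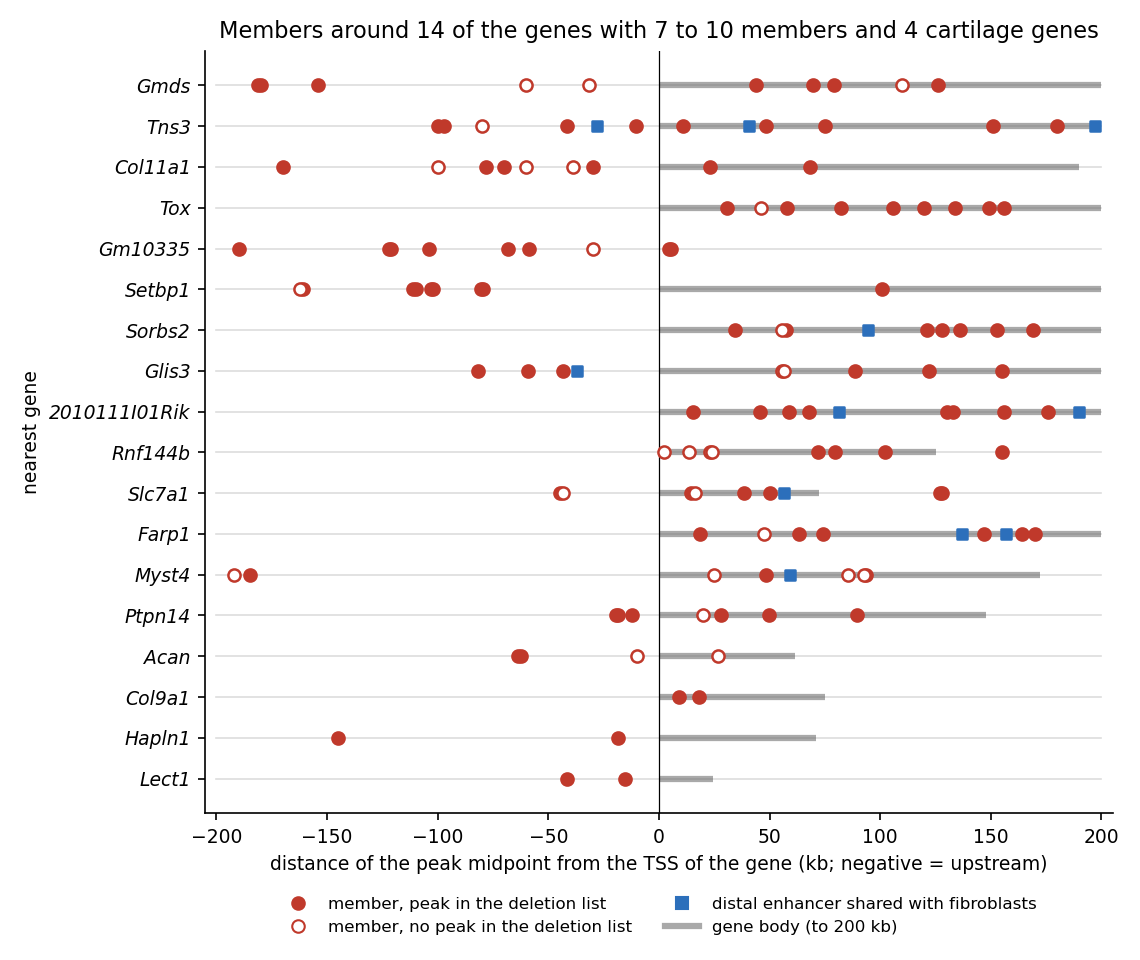
Distance (kb) of each member from the TSS of its nearest gene, negative upstream, for 14 of the genes with 7 to 10 members and for 4 cartilage genes; filled circles have a peak in the deletion list, open circles have none, squares are shared distal enhancers and grey bars the longest annotated gene body. Tox and Sorbs2 had every member inside the gene body, and the 9 members of Col11a1 ran from 170 kb upstream to 68.3 kb downstream.

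Cartilage matrix genes were the densest of the gene lists. Of 27 genes, 17 had a member (63%, 42.4 to 80.6), against 12.7% of all protein-coding genes, with 41 members or 13.5 per Mb of sequence nearest to these genes, where all genes had 2.47 per Mb. For shared distal enhancers the same sequence held 7, or 2.3 per Mb, beside 1.88 over all genes. A deletion peak was present at 34 of the 41 and a match in replicate 2 at 39 of 41, 95.1% (83.5 to 99.4), against 54.2% of all members. The match rose with the WT score, as given below, and the median WT score was 211 for the 41 and 128 for all members. The part of the score in this contrast was not tested. In introns lay 16 of the 41, 39% (24.2 to 55.5), beside 56.6% of all members and 17 of 44, 38.6% (24.4 to 54.5), at fibroblast and mesenchyme genes. Of those outside introns, 7 lay upstream of Col11a1. The 41 had a median width of 2125 bp, beside 958 bp for all members.

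Col11a1 alone had 9 of these 41. The highest of its members by replicate 1 score (439), 30 kb upstream, had a WT fold of 17.3 and a deletion fold of 6.05. The region 78 kb upstream, 6277 bp wide, had a WT fold of 13.1 and a deletion fold of 7.8. No deletion peak was present at the regions 100, 60.3 and 38.9 kb upstream, with WT folds of 4.68, 3.73 and 6.51, and all 9 had a match in replicate 2. The promoter of Col11a1 had a peak in the WT, deletion and replicate 2 lists and none in the replicate 1 or H3K4me2 lists.

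At Acan the 4 members lay 63.5, 62.4 and 9.88 kb upstream and 26.5 kb downstream in an intron. The upstream pair shared a WT peak of fold 10.2 and had a deletion fold of 7.55. The regions at 9.88 and 26.5 kb, with WT folds of 6.18 and 4.57, had no deletion peak, and all 4 had a match in replicate 2. At Col9a1 both members were intronic, and the wider, of 6823 bp, the widest of all members, had a WT fold of 13.9 and a deletion fold of 14.4. Lect1, an inhibitor of blood vessel growth, had a member 15.4 kb upstream with a replicate 1 score of 472, a WT fold of 21.3 and a deletion fold of 15. Hapln1 had members 145 and 18.6 kb upstream, with WT folds of 9.98 and 11.3 and deletion folds of 6.19 and 7.36.

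Within the same list, Chst11, a chondroitin sulfotransferase, and Xylt1, the xylosyltransferase that starts glycosaminoglycan chains, had 4 intronic members each, with deletion peaks at 4 and 3. Fmod, Prelp, Ucma and Cytl1, small proteins secreted in cartilage, had 2 each, all with a deletion peak. Col2a1, Col9a3 and Matn3 had 1 each. Prg4, the lubricin of joint surfaces, had 1 without a deletion peak. Col2a1, the main collagen of cartilage, had 4 distal replicate 1 peaks, of which 1 lacked a WT peak and 2 an H3K4me2 peak. The fibroblast list had a promoter peak at 3 of the 27 genes and the replicate 1 or WT lists at 21.

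**Figure D4:**
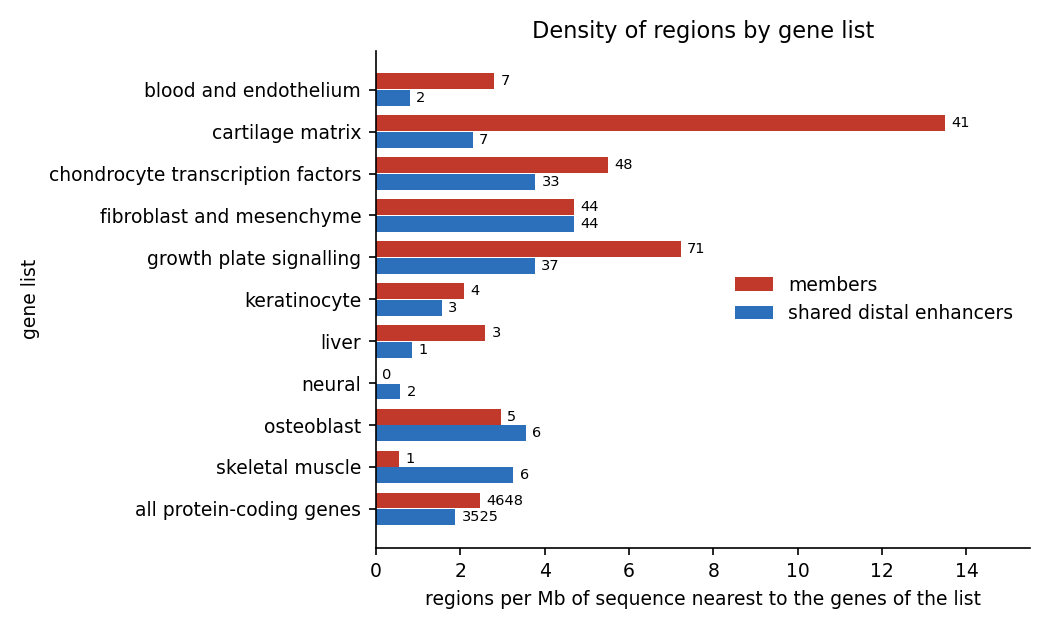
Number of members and of shared distal enhancers per Mb of sequence nearest to the genes of each list, with the number of regions beside each bar. Cartilage matrix genes had 13.5 members and 2.3 shared distal enhancers per Mb, fibroblast and mesenchyme genes 4.69 of each.

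Genes for chondrocyte transcription factors had 48 members at 19 of 44 genes, 43.2% (28.3 to 59), or 5.5 per Mb beside 3.78 per Mb for shared distal enhancers. A match in replicate 2 was found for 29 of the 48, 60.4% (45.3 to 74.2). Trps1, a GATA-type repressor of the growth plate, had 6, all intronic, 3 with a deletion peak. Foxc1, a forkhead factor of skeletal development, had 5, and the 4 intronic ones lay in Gmds. The one 13.7 kb downstream of Foxc1 had a WT fold of 24. Foxc2 had 4, all inside the long Gm20388 model and all with a deletion peak. Foxa2 and Gli3 had 4 each, with deletion peaks at 1 and 3, and Hif1a, Nfib and Runx1 had 3 each.

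Sox9, Sox5 and Sox6, the trio at the head of the cartilage programme, had no member. Sox9 had 15 distal replicate 1 peaks as nearest gene, of which 10 lay beyond 200 kb, 4 lacked a WT peak and 1, at E160, had a fibroblast peak. Upstream, none of the 15 lay farther than 172 kb. The replicate 1 peak at E308, 309 kb upstream of Sox9, was nearer to the TSS of another gene and is not among them. Of the 10 beyond the limit, 5 met all other conditions, between 304 and 383 kb downstream, with a deletion peak at 350 and 351 kb. Sox5 had 14 distal peaks, 12 of them beyond 200 kb, of which 7 met all other conditions between 601 and 735 kb downstream of its TSS. Sox6 had none. Marked regions were thus present at Sox9 and Sox5, most of them beyond the distance limit. In all, 562 regions were left out by the limit alone, led by Myc with 10.

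Growth plate signalling genes had 71 members at 29 of 62 genes, 46.8% (34 to 59.9), or 7.23 per Mb, with 3.77 per Mb for shared distal enhancers. A deletion peak was present at 58 of 71 and a match in replicate 2 at 43 of 71, 60.6% (48.3 to 72). The match was found for 0 of 4 members at Tgfb2, 0 of 3 at Grem1, 1 of 6 at Ror2 and 2 of 6 at Tgfbr3. Whether the annotated starts of these genes differ between the builds was not tested. Among ligands, Tgfb2 had 4, Gdf10, a BMP family member, had 3, and Igf2 had 2. Receptors were led by Ror2, a Wnt5a receptor, and Tgfbr3, the TGF-beta co-receptor betaglycan, with 6 intronic members each, followed by Tgfbr2 and Fzd9, a Wnt receptor, with 4 each and Fgfr1 with 3. The 16 members in introns of the long Fgfr2 model were all nearest to the TSS of another gene, so they were not counted for Fgfr2. Grem1, a secreted BMP antagonist, and Smad6, an intracellular one, had 3 each. Ctgf, a matricellular protein induced in chondrocytes, had 6, of which 5 lay upstream between genes and 5 had a deletion peak. Its region 60.8 kb upstream had a replicate 1 score of 502 and a WT fold of 10.3. At Tgfbr3 the region 122 kb downstream had a WT fold of 21.1 and a deletion fold of 11.8. Ctgf, Fzd9, Gdf10 and Grem1 had no shared distal enhancer, while Smad6 had 6 and Tgfbr2 4.

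Fibroblast and mesenchyme genes also had members, 44 at 21 of 48 genes, 43.8% (29.5 to 58.8). Their density of 4.69 per Mb equalled that of shared distal enhancers, also 44, and 24 of the 44 had a match in replicate 2, 54.5% (38.8 to 69.6). Col5a2, a chain of type V collagen, had 5, all with a deletion peak, and Ets1, a transcription factor, had 5, none with a deletion peak and with WT folds of 3.28 to 4.78. Fn1 and Prrx1 had 3 each. Col1a1, Col5a1 and Fbln2 had shared distal enhancers, 3, 4 and 3, and no member.

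The other lists were small, and some stood at or slightly above the level of all protein-coding genes, 12.7% with a member and 2.47 members per Mb. Osteoblast genes had 5 members at 3 of 19 genes, 15.8% (3.38 to 39.6) and 2.96 per Mb, of which Spp1, osteopontin, had 3. Blood and endothelium genes had 7 at 5 of 25, 20% (6.83 to 40.7) and 2.8 per Mb, with Cdh5 and Fli1 at 2 each and deletion peaks at 2 of the 7. Liver genes had 3, at Apob and Apoa1, 13.3% of 15 genes (1.66 to 40.5) and 2.6 per Mb. Keratinocyte genes had 4, at Klf5 and Trp63, or 2.09 per Mb, and skeletal muscle genes 1, at Mef2c, or 0.544 per Mb. None of 21 neural genes had a member, which allows a share of up to 16.1%.

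Promoters of the nearest genes were mostly marked in fibroblasts as well. Within 1 kb of the TSS a fibroblast peak was present at 1719 of the 2820 genes, 61% (59.1 to 62.8), against 44.8% of all protein-coding genes, and a WT peak at 68.3% (66.5 to 70), against 47.3% of all. Among the 1955 genes with a promoter peak in replicate 1 or the WT list, 86.1% (84.5 to 87.6) had one in fibroblasts, where the share over all such genes was 89.1% (88.5 to 89.6) and over those of shared distal enhancers 87.4% (85.7 to 89). At genes with 5 or more members it was 80.7% (70.6 to 88.6). Tns3 and Gmds had a fibroblast promoter peak, whereas Tox, Rnf144b, 2010111I01Rik, Col11a1 and Acan had none.

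The members were of middling height in the lists that chose them. By score their median rank was the top 53.4% of the replicate 1 list and the top 51.4% of the WT list, against 37.3% and 28.3% for shared distal enhancers. All distal replicate 1 peaks had a median rank of 60.7% in replicate 1, lower than the members. The 9879 of them with a WT peak had one of 42.1% in the WT list, higher than the members. The median WT fold enrichment over the local background was 6.69 in members (quartiles 4.92 and 9.62) and 12.4 in shared distal enhancers (7.79 and 20). The highest replicate 1 score, 1336, belonged to an intronic region of 2010111I01Rik, 176 kb downstream of the TSS, with a WT fold of 16.3 and a deletion fold of 11. Next came Kif21a, a kinesin, with 884, Npas3, a neural transcription factor, with 739, Atoh8, a basic helix-loop-helix factor, with 713, and Fam13c with 650. All 5 had a deletion peak. Among the 5 members highest by WT score were those at Sp2, at Nacc2 for a pair of members in 1 WT peak, and at Tubd1 in a coding exon of Vmp1. The Sp2 region had a WT fold of 49.1 and a replicate 1 score of 59.9, which ranked in the top 85.9% of that list. Among the 37 members in the highest of 10 classes of WT peaks by score, the WT peak itself reached within 1 kb of a TSS in 11, 29.7% (15.9 to 47), and in 0.968% of all members.

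A match in replicate 2 was sought by distance from the TSS, because the coordinates of that list were those of the later GRCm38 build. The replicate 2 list marked 6.26% of promoters at mm9 positions and 43% at GRCm38 positions. A member counted as matched where a replicate 2 peak reached within 1 kb of the same distance from the same gene's TSS. Of 4329 members whose gene could be placed in both builds, 2348 were matched, 54.2% (52.7 to 55.7), against 42% of all distal peaks of replicate 1. Shared distal enhancers were matched in 68.7% (67.1 to 70.3), distal replicate 1 peaks with neither a WT nor a fibroblast peak in 12.2% (11.3 to 13.3) and fibroblast peaks without a chondrocyte peak in 2.33% (1.83 to 2.91). A WT peak was required of members and shared distal enhancers only, so the other shares are not of like regions. A gene start annotated differently in the other build would also prevent a match. At genes of the same length in both annotations, 60.2% of members (58.5 to 61.9) and 80.9% of shared distal enhancers (79.2 to 82.5) were matched. Matched members had a deletion peak in 79.7% (78 to 81.3) and unmatched ones in 53.1% (50.9 to 55.3). The match rose with the WT score over 10 classes of WT peaks, from 32.7% of members in the lowest (27.9 to 37.8) to 58% in class 5 (54.3 to 61.6) and 97.1% in class 1, the highest (84.7 to 99.9). It lay between 32.7% and 47.9% in classes 6 to 10, the lower 5. Within a class the intervals of members and shared distal enhancers overlapped except in class 2, with 91.9% of members (86.4 to 95.8) and 80.6% of the shared set (77.4 to 83.5).

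In chondrocytes without E160 and E308, the list of H3K27ac peaks held a peak at 3133 of 4648 members, 67.4% (66 to 68.8), against 62.8% of all WT peaks and 64.6% of all replicate 1 peaks. Among distal peaks it was 50.8% (50.2 to 51.5) of the WT list and 47.5% (46.8 to 48.3) of replicate 1. Members had to have a peak in both of these lists, which the background peaks did not, so the shares are not of like regions. Distal replicate 1 peaks with neither a WT nor a fibroblast peak had a deletion peak in 0.86% (0.615 to 1.17). The share of members fell below 50% under some definitions. It was 47.2% with 50% reciprocal overlap, which was then required of the deletion peak too. It was 48.5% when the members were chosen without replicate 1. Shared distal enhancers had one in 3142 of 3525, 89.1%. Members and shared distal enhancers differed in WT score: 51.9% of members and 18.6% of shared distal enhancers lay in the lower 5 of 10 classes of WT peaks. All WT peaks, taken in the same proportions of score classes, had a deletion peak in 62.9% for the members and 87.1% for the shared set. In each of the 10 classes the intervals of the 2 sets overlapped, and the widest gap was in class 7, with 47.2% of members (43 to 51.5) and 57.1% of the shared set (49.1 to 64.9). In the highest class all 37 members and all 452 shared distal enhancers had a deletion peak, in class 5 it was 91.2% of members (89 to 93.1) and 93% of the shared set (90 to 95.3), in class 6 69.4% (65.6 to 72.9) and 69.5% (63.3 to 75.1), and in the lowest class 13.5% (10.3 to 17.3) and 11.1% (4.92 to 20.7). In each of the lower 5 classes members lay above all WT peaks, with intervals that did not overlap. In class 7 it was 47.2% of members and 38.8% of all WT peaks (37.1 to 40.5). Members in introns and between genes had a deletion peak in 67.1% (65.3 to 68.9) and 67.8% (65.6 to 69.9).

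**Figure D5:**
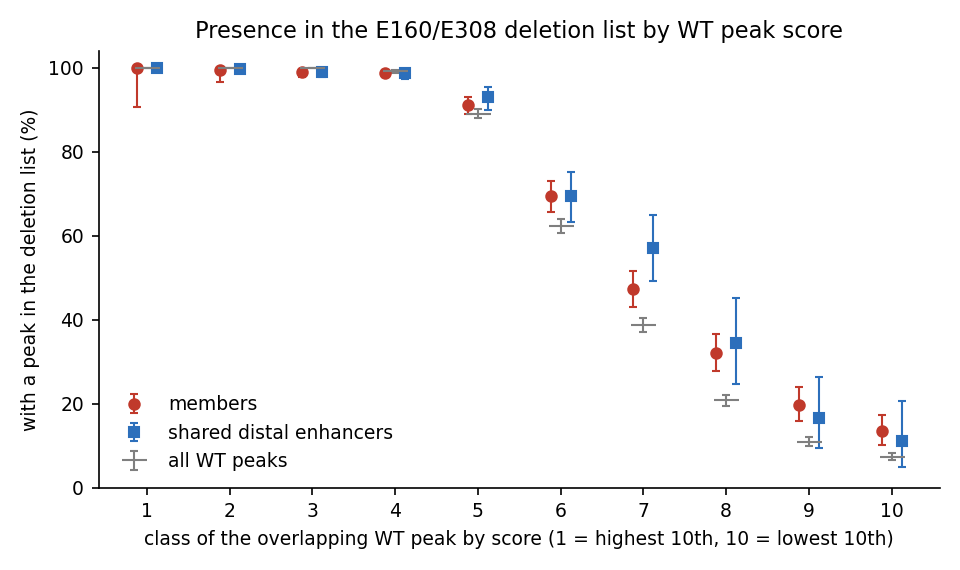
Share (%) of members, shared distal enhancers and all WT peaks with a peak in the deletion list, by class of the WT peak score (1, highest scores, to 10, lowest scores, with equal numbers of WT peaks); points show the share and whiskers the exact 95% interval. The share of members fell from 37 of 37 in class 1 to 69.4% in class 6 and 13.5% in class 10.

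The deletion list was shorter than the WT list, 25230 peaks against 33392, and 1 library stood behind each, so a missing peak cannot be told apart from a difference between libraries. By list, the share of members with a deletion peak was 82.9% for cartilage matrix genes (67.9 to 92.8), 81.7% for growth plate signalling (70.7 to 89.9), 72.9% for chondrocyte transcription factors (58.2 to 84.7) and 63.6% for fibroblast and mesenchyme genes (47.8 to 77.6). WT peaks of the same score classes had 76.9%, 75.7%, 63.7% and 59.2%, each inside the interval of its list. For all members together the value was 62.9%, below their interval of 66 to 68.8. The members without a deletion peak that had the highest WT scores lay at Fmr1 (WT fold 24.6), Rrm1 (18.4), Per3 and Evi5 (both 15.7) and Slc7a1 (14.6). The first 4 lay in introns within 5.73 kb of the TSS of their gene, and the Slc7a1 region lay 43.5 kb upstream. The deletion peak was sought over the member itself and not over the whole WT peak. Rrm1, Per3, Evi5 and Slc7a1 were in class 3, where 3336 of 3337 WT peaks overlapped a deletion peak. At Slc7a1 another member in the same WT peak, 44.5 kb upstream, had a deletion fold of 10.7. These absences therefore do not show that a WT peak was missing in the deletion list.

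Members lay close to each other in part. With gaps of up to 10 kb joined, they formed 3916 groups, of which 91 held 3 or more, and 1352 members, 29.1%, lay in a group of at least 2, against 25.3% of shared distal enhancers. The largest groups held 5, and the one near Hrct1 and Olfr159 on chromosome 4 spanned 24.8 kb, with a deletion peak at all 5. Groups of 4 included those upstream of Fzd9 and of Epha2, an ephrin receptor, each with 4 deletion peaks, and 4 in Kif21a with 1. Wide WT peaks of at least 5 kb covered 35 members, 0.753%, against 1.14% of all distal replicate 1 peaks and 2.16% of shared distal enhancers. The X chromosome had 72 members, 1.55%, where it had 1.96% of shared distal enhancers, 2.22% of all distal replicate 1 peaks and 6.35% of genome positions within the limits.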

How the data were processed

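H3K27ac and H3K4me2 ChIP-Seq peaks of 6 libraries were used, of 7 samples in the series, and the input sample was not analysed here. Per the submitters' processing notes and the study's methods, reads were trimmed with fastp, aligned with Bowtie2 2.4.4 to mm9, and peaks were called per library with MACS2 2.2.4 at its default q-value against input. The authors deposited a peak score in each list (column 5), which ranks peaks within that list, and, for replicate 2, WT and deletion, a fold enrichment over the local background with −log10 p and −log10 q values. The replicate 1, H3K4me2 and fibroblast lists are in the short format of earlier MACS releases, so scores were never compared between lists. Replicate 2 fitted GRCm38 gene starts and was used only by distance from the TSS. No coordinate was converted.

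Overlaps, TSS distances and places were computed in Python 3.11.15 with numpy 2.4.6, pandas 2.3.3 and scipy 1.17.1 and checked against bedtools 2.31.1, with 22350 protein-coding genes of GENCODE vM1, which is on mm9. Sequences came from the NCBIM37 (mm9) genome. RefSeq names (GRCm38.p6) placed 20455 genes in both builds. Density per Mb divided regions by the sequence nearest to a list's TSSs within 200 kb. The scripts were tested on simulated lists with planted overlaps. The rule used 1 library of each kind, and the only second library, chondrocyte H3K27ac replicate 2, was in another build, so no test between conditions was run and no p-value is given; exact intervals at the 95% level cover counting error only. The members and gene lists were chosen with earlier results of these data known. Genes were named by rule: the 15 with most members, the 5 members highest by replicate 1 and by WT score, the list genes with 3 or more members, and the members next to each threshold. Some genes that this rule names are not reported here. Others were chosen after their values were seen, among them the intron hosts, the 5 members without a deletion peak and the list genes with fewer members. Alternatives covered the overlap, score limits, distance limits, TSS set, required marks, replicates, motif window and group gap.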

Additional observations from a re-analysis of the deposited data

How the results depend on the processing

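The reported values were 4648 members, 2820 nearest genes, 56.6% in introns, 67.4% with a deletion peak and 108 genes with 5 or more members. Requiring 50% reciprocal overlap gave 1880 members, 1418 genes, 47.2% with a deletion peak and 12 genes with 5 or more. The higher-scoring 50% of each list gave 1418 members, 1171 genes, 51% in introns, 56.8% with a deletion peak and 1 gene with 5 or more, and the highest-scoring 25% gave 240, 230, 43.8%, 56.2% and 0. Equal numbers of top peaks gave 872, 747, 51.7%, 77.5% and 0. These settings use fewer peaks by construction, so the counts fall, and the cause of the lower intron share was not tested. The reciprocal overlap was also required of fibroblast and deletion peaks, and the score limits cut those lists too. A region over a lower-scoring fibroblast peak could thus become a member, and a deletion peak was harder to find. A limit of 100 kb gave 49 genes with 5 or more, and 500 kb gave 54.6% in introns. Without the WT requirement there were 8299 members, 4378 genes, 55.1% in introns, 38.2% with a deletion peak and 284 genes with 5 or more. Leaving out replicate 1 (starting from WT peaks) or replicate 2 gave 4648 to 10251 members, 2820 to 4480 genes, 48.5% to 67.4% with a deletion peak and 108 to 466 genes with 5 or more, where the higher counts and the lower share are those without replicate 1. The replicate 2 match was 56% at 2 kb, and 60.2% with genes of equal length in both annotations, which was chosen after seeing the data, as were the alternatives of RefSeq genes and of long gene models. SOX hexamers were in 25% of 200-base and 50.2% of 500-base windows. The other single motifs moved as well, to 8.46% and 21% for AP-1 and 16.1% and 35.6% for RUNX. For PITX the shares were 7.08% and 16.5%, and for TEAD 15.2% and 33.3%. Other alternatives left these values within 1.5 times (counts) or inside their intervals. No paired analysis was possible because the result comes from no test and the groups compared share a single replicate number. Read depth is unknown, and 1 library per list leaves library and condition joined.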
